A study of Homo sapiens with 14 samples.

Results

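Guides aimed at the second promoter of a gene (P2) were examined in a pooled CRISPR interference screen for the abundance of the delta opioid receptor (DOR) after agonist. The members are all guides whose name carries the start label P2 in the sublibraries H1, H2, H3, H5, H6 and H7. They number 6104 of 91463 guides and cover 1229 genes. Their comparison is with guides at the first promoter (P1) of the same genes, of which there were 6083. The P1 and P2 guides of 1227 genes passed the filters in the same sublibrary.

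Each of these 6 sublibraries was sequenced from the top and the bottom quartile of the sorted fluorescence, which makes 12 compared libraries, with 1 library per quartile and sublibrary. All groups were the same cells under the same treatment. The host line was HEK293 FLP-In, derived from human embryonic kidney. It was a clone expressing the repressor dCas9-KRAB-BFP and carried a DOR fusion to APEX2 (pUBC-SSF-DOR-APEX2). They were transduced at a multiplicity of about 0.2, kept under puromycin at 0.75 µg/ml for 3 days, and treated with 10 µM of the opioid peptide agonist DADLE for 90 min. APEX2 is a peroxidase, and its reaction with 100 µM Amplex UltraRed and 50 µM H2O2 for 1 min gave the fluorescence. The labels give 8 days to the assay. As the cells are 1 clone and each quartile was sequenced from 1 sort, the tests below compare the libraries and hold no replicate check, and p-values do not cover the spread between sorts. Depth was 18112304 to 34636612 counts in the top libraries and 18054418 to 29113624 counts in the bottom libraries. The median P2 guide had 1192.5 to 2076 counts in the top libraries and 1184.5 to 1701 counts in the bottom libraries.

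Many human genes are transcribed from more than 1 promoter, and which of them is active depends on the cell type. dCas9-KRAB silences transcription when a guide places it close to an active start, and its reach along the chromatin is short. Guides at a start that a cell does not use, or far from the one it uses, therefore often leave the gene's RNA in place. A separate guide set per promoter shows which position gives a phenotype. The libraries carry no RNA measurement, so neither the use of a promoter nor the repression of a gene was measured.

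The value of a guide is log2 of its top count over its bottom count, each with 1 added, minus the median value of its sublibrary's non-targeting guides. A positive value means more of the guide's cells in the bright quartile. A target (1 start of 1 gene) has the mean of its guides, given with the SD over guides. Guides of a target share the gene and often overlap in position, and they are not repeats of the experiment. The 5 P2 guides of a gene spanned a median of 402 bases and those at P1 a median of 395 bases. On the plus strand lay 49.5% of the P2 guides and 49% of the P1 guides. The nearest P2 and P1 guides of a gene lay a median of 6411 bases apart, with quartiles at 2113 and 16980 bases. Positions are those written in the guide names, and the genome build behind them is not stated in the labels.

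P2 guides moved little as a group. Their values had an SD of 0.28, against 0.37 for P1 guides, with 0.26 for the 1619 non-targeting guides past the count filter. Values above 1 were found for 25 of 6081 P2 guides, or 0.411%, against 72 of 6069 P1 guides, or 1.19%. The non-targeting guides had 7 such values, or 0.432%. Values below -1 were found for 24 P2 guides, or 0.395%, against 38 P1 guides, or 0.626%, with 3 non-targeting guides, or 0.185%. The target means had an SD of 0.13 at P2 and 0.22 at P1, while the spread of guides within a target was alike, with a median SD of 0.22 at both starts.

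Of 1229 P2 targets, 12 passed an adjusted p of 0.05, or 0.976%, in the permutation test against draws of own and non-targeting guides. Higher in the top libraries were 4, and higher in the bottom libraries were 8. At P1 of the same genes 60 passed, or 4.88%, of which 32 leaned to the top libraries and 28 to the bottom libraries. Over all 18116 targets of the 6 sublibraries 709 passed, or 3.91%, with 2.38% toward the top and 1.53% toward the bottom libraries. Thus the share at P2 was below that of all targets, and the share at P1 was near it. By sublibrary the P2 calls were 2 of 217 in H1, 4 of 264 in H2, 3 of 207 in H3, 2 of 166 in H5, 1 of 143 in H6 and 0 of 232 in H7. The SD of the non-targeting guides, which fill most of the draws, was 0.21 to 0.33. It was highest in H7, where 2 of 231 P1 targets passed. Unadjusted p-values under 0.05 were found for 7.32% of the P2 targets and 12.7% of the P1 targets. With edgeR's quasi-likelihood test on the counts, with guides as blocks, 2 P2 targets passed, both higher in the bottom libraries, while at P1 8 passed toward the top and 10 toward the bottom libraries. Of the P2 targets named below, SLC1A5 passed with edgeR and PRRT1, with 4 guides, was not tested with it; the P2 calls of the other named targets ended.

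Both starts passed for 6 of 1227 genes, 4 of them in the same direction and 2 in opposite directions. P1 thus passed for 6 of the 12 genes with a P2 call, while 4.88% of all P1 targets passed. P1 alone passed for 54 genes, and P2 alone for 6. In the 54 genes the median absolute mean was 0.06 at P2 and 0.52 at P1, and the median absolute P2 mean over all 1227 genes was 0.07. Large P1 means and P2 means short of the threshold are what put these genes in the group, so the values only describe it.

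The transporter SLC1A5 had the largest difference between its starts of all genes tested. It carries glutamine and other neutral amino acids into cells. At P2 its 5 guides had -0.79, -0.44, -0.41, -0.32 and -0.53 (positions 47287944 to 47288033 of chromosome 19). At P1 they had -2.90, -2.23, -2.98, -2.65 and -2.40 (positions 47291608 to 47291829). All 10 guides were more frequent in the dim quartile, and the ranges of the 2 starts did not overlap. The P2 mean was -0.50 ± 0.18 (SD, n = 5 guides) with a permutation adjusted p of 0.0351, a top over bottom ratio of 0.708. The P1 mean was -2.63 ± 0.32 (SD, n = 5 guides) with a permutation adjusted p of 0.000625, the lowest value these draws gave, a ratio of 0.161. P2 minus P1 was 2.14 in edgeR's quasi-likelihood model with an adjusted p of 6.15e-09. The starts lay 3575 bases apart at their nearest guides, with P2 downstream.

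SLC4A2 and HMOX1 also passed in the same direction at both starts. SLC4A2 exchanges chloride for bicarbonate across the plasma membrane. Its P2 guides ranged from -0.84 to just under 0 and averaged -0.35 ± 0.31, against -0.96 ± 0.22 at P1, where they ranged from -1.27 to -0.70 (SD, n = 5 guides each). The permutation adjusted p was 0.0269 at P2 and 0.000625 at P1. The P2 guide farthest from P1 had the lowest P2 value, and the ranges overlapped. The difference of 0.61 missed the threshold, with an edgeR adjusted p of 0.0640. The P2 call also ended with the median over guides, at a permutation adjusted p of 0.200, and without the farthest guide, where the mean was -0.23 and the permutation adjusted p 0.129.

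HMOX1, heme oxygenase 1, breaks down heme, the cofactor on which APEX2 depends. At P2 the guides had 0.37, 1.36, 0.67, 0.64 and -0.12, against 0.35, 1.41, 1.15, 1.37 and 0.91 at P1. Thus 4 of 5 guides at P2 and 5 of 5 at P1 leaned to the bright quartile. The means were 0.58 ± 0.54 at P2 and 1.04 ± 0.44 at P1 (SD, n = 5 guides each), with permutation adjusted p-values of 0.00157 and 0.000625. The starts lay 5462 bases apart. The difference of -0.46 was not past the threshold, with an edgeR adjusted p of 0.781 and a standard error of 0.31 over guides.

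For CHD2 and PCID2 the 2 starts passed in opposite directions. CHD2 is a chromatin remodeller of the CHD family. Its P2 guides had -0.07, -0.18, -0.66, -0.52 and -0.39, against -0.10, 0.34, 0.61, 0.68 and 0.38 at P1. All 5 P2 guides were more frequent in the dim quartile, while 4 of 5 P1 guides were more frequent in the bright one. The means were -0.36 ± 0.24 at P2 and 0.38 ± 0.30 at P1 (SD, n = 5 guides each), with permutation adjusted p-values of 0.0118 and 0.00809. The difference was -0.75 with an edgeR adjusted p of 0.0237. P2 lay 17264 bases upstream of P1. The CHD2 P1 call ended with edgeR as well, and the difference missed the threshold with limma.

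PCID2, a subunit of the TREX-2 complex of mRNA export, had 0.40, 0.21, 0.40, 0.29 and 0.41 at P2, against -0.36, -0.85, -0.29, -0.42 and -0.17 at P1. Each guide lay on the side of its own start, and the ranges did not overlap. The means were 0.34 ± 0.09 at P2 and -0.42 ± 0.26 at P1 (SD, n = 5 guides each), with permutation adjusted p-values of 0.0444 and 0.00503. The difference was 0.76 with an edgeR adjusted p of 0.00402. The P2 call ended with the median over guides and with centring on all guides, and the P1 call with the median and with edgeR. The starts lay 21124 bases apart.

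A further 6 P2 targets passed while P1 of the gene did not. ESYT1, an extended synaptotagmin that tethers the endoplasmic reticulum to the plasma membrane, had -0.28, 0.04, -0.81, -0.73 and -0.50 at P2, against -0.23, -0.20, 0.47, -0.01 and -0.10 at P1. The means were -0.46 ± 0.35 at P2 and -0.01 ± 0.28 at P1 (SD, n = 5 guides each), with a permutation adjusted p of 0.000625 at P2. The difference of -0.44 had an edgeR adjusted p of 0.382. These 5 P2 guides carry the same positions and strands as the guides of ZC3H10, a zinc finger gene, so the gene behind the value cannot be told apart from them.

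Because ZC3H10 is in H5, the same guides were sorted there again, apart from H3. In H5 they had -0.31, 0.11, -0.75, -0.91 and -0.74, against -0.28, 0.04, -0.81, -0.73 and -0.50 in H3. The order of the guides was close in both, and the 1 guide above 0 was the same. The H5 mean was -0.52 ± 0.42 (SD, n = 5 guides) with a permutation adjusted p of 0.00319.

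The other 5 varied widely between guides. SRSF6, a serine- and arginine-rich splicing factor, had -1.48, -0.33, -0.14, -0.25 and -0.24 at P2, against 0.45, 0.24, 0.41, 0.41 and 0.06 at P1. The ranges did not overlap, and 1 P2 guide lay far below the rest. Its means were -0.49 ± 0.56 at P2 and 0.32 ± 0.16 at P1 (SD, n = 5 guides each), and the difference of -0.79 had an edgeR adjusted p of 0.0800. GNAT1, the alpha subunit of rod transducin, had 1 P2 guide at -2.56, with 53 top and 254 bottom counts, and the others between -0.44 and 0.11. Its P2 mean was -0.67 ± 1.08, against -0.05 ± 0.17 at P1 (SD, n = 5 guides each). Without the farthest guide of each target SRSF6 had -0.24 and GNAT1 -0.19, and with the median over guides -0.25 and -0.29, and neither passed in either setting.

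TBX18, a T-box transcription factor, had 2.10 and 2.86 at a pair of P2 guides and between -0.15 and 0.35 at the other 3. The guide at 2.86 had 128 top and 21 bottom counts, a counting standard error of 0.33. The mean was 1.04 ± 1.36 at P2, against 0.11 ± 0.13 at P1 (SD, n = 5 guides each). With the median over guides TBX18 had 0.35 at P2 and did not pass, at a permutation adjusted p of 0.0956. BCAR1, the adaptor p130Cas of integrin signalling, had 1.05, 0.55, 0.08, 0.53 and -0.19 at P2, against 0.23, 0.04, 0.73, 0.15 and 0.07 at P1. Its means were 0.41 ± 0.48 at P2 and 0.24 ± 0.28 at P1 (SD, n = 5 guides each). PRRT1, a synaptic membrane protein, had -0.92, 0.01, -0.95 and -0.21 at P2, a mean of -0.52 ± 0.49 (SD, n = 4 guides), against 0.04 ± 0.29 at P1 (SD, n = 5 guides). The PRRT1 guide at -0.95 was sorted again under EGFL8 in H7 and under PPT2 in H3, at -0.16 and 0.18. PRRT1 passed with the median over guides but not without guides listed under several targets, with no filter on counts, without the farthest guide or with adjustment within sublibraries. BCAR1 passed with the median over guides, at 0.53, and not without the farthest guide, at 0.24.

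Just outside the threshold lay ATF7IP at -0.39, RCC1 at 0.34, ACIN1 at -0.31, RBM4 at 0.38 and POLM at 0.35, with permutation adjusted p-values of 0.0516 to 0.0678. Just inside lay PCID2 at 0.0444 and SLC1A5 at 0.0351. Of these, RBM4 and RCC1 had P1 targets that passed, at 0.53 ± 0.44 and -0.41 ± 0.32 (SD, n = 5 guides each), RBM4 on the same side as at P2 and RCC1 on the opposite one. The RBM4 P1 guides are shared with other targets.

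The direct test of P2 against P1 ran over the 1103 genes with 5 guides at each start. The difference passed for 8 genes, or 0.725%, with 4 higher at P2 and 4 lower at P2. For each of the 8 the P1 target had passed, and for SLC1A5, CHD2 and PCID2 the P2 target had passed too. The guides of the starts did not overlap in 20 of the 1103 genes, or 1.81%, and in 6 of these 8. With 5 guides at each start, ranges that do not overlap fix the exact permutation at its smallest two-sided p, 0.00794. It therefore adds no support for those 6.

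Higher at P2 than at P1, beside SLC1A5 and PCID2, were SEC61A1 and RCC1. SEC61A1 is the pore subunit of the protein translocation channel of the endoplasmic reticulum. Its P2 guides had 0.01, 0.18, 0.04, 0.08 and 0.26, against -0.43, -1.20, -0.74, -1.13 and -0.92 at P1. The P2 guides all lay near 0 and the P1 guides all lay below them. The difference was 0.99 with an edgeR adjusted p of 0.00189, over a distance of 12466 bases. RCC1, the nucleotide exchange factor of the Ran GTPase, had 0.60, 0.07, 0.41, 0.06 and 0.54 at P2, against -0.20, -0.60, -0.70, 0.06 and -0.59 at P1. Its difference was 0.74 with an edgeR adjusted p of 0.0337, which did not pass with limma.

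Lower at P2 than at P1, beside CHD2, were PPP2R1A, SLC12A9 and SMC4. PPP2R1A is the scaffold subunit of protein phosphatase 2A. Its P2 guides had 0.11, -0.34, -0.72, 0.16 and -0.18, against 1.32, 0.97, 1.42, 0.89 and 0.58 at P1. No P2 guide reached the lowest P1 guide, and the difference was -1.23 with an edgeR adjusted p of 0.00109. SLC12A9, a member of the cation-chloride cotransporter family, had -0.12, -0.22, 0.02, -0.13 and 0.29 at P2, against 1.30, 0.76, 1.44, 1.07 and 0.54 at P1. Its difference was -1.06 with an edgeR adjusted p of 0.00189. The SLC12A9 P2 guide at -0.13 is also a guide of EPHB4 in H1, where it had -0.07. With no filter on counts the SLC12A9 P1 target did not pass, at a permutation adjusted p of 0.0567. SMC4, a condensin subunit, ranged from -0.09 to 0.13 at P2, against 0.28 to 0.60 at P1. Its difference was -0.42 with an edgeR adjusted p of 0.0436, which did not pass with limma or with no filter on counts. In these 3 genes the P2 mean was -0.19, -0.03 and 0.02 in that order, and none of the P2 targets passed.

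Other genes with a P1 target far from 0 had P2 guides near 0, though the difference did not pass with 5 guides a start. VPS41, a subunit of the HOPS complex that tethers late endosomes to lysosomes, had 0.27, -0.06, -0.12, 0.03 and -0.10 at P2, against -0.01, 1.24, 1.93, 1.93 and 0.87 at P1. The means were 0.00 ± 0.16 at P2 and 1.19 ± 0.81 at P1 (SD, n = 5 guides each), and the difference had an edgeR adjusted p of 0.245. The P1 guide near 0 made the ranges overlap. NCL, the nucleolar protein nucleolin, had 0.04 ± 0.10 at P2 and 0.89 ± 0.55 at P1, and ESF1, a ribosomal RNA processing factor, had 0.04 ± 0.16 at P2 and -1.01 ± 0.90 at P1 (SD, n = 5 guides each). ZNF574, a zinc finger gene, had 0.06 ± 0.10 at P2 and 0.93 ± 0.56 at P1, and DNASE1L1, a DNase I family member, had 0.00 ± 0.24 at P2 and -0.72 ± 1.06 at P1 (SD, n = 5 guides each). Of the DNASE1L1 P1 guides the lowest had -2.42, and 2 lay above 0. With the median over guides its P1 value was -0.22 and did not pass, at a permutation adjusted p of 0.351. Without the farthest guide it was -0.30 and passed. The P1 calls of VPS41, NCL, ESF1, ZNF574 and DNASE1L1 all ended with edgeR.

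In several genes P1 guides are also those of a neighbour. DCAF8, a substrate receptor of CUL4 ligases, had 0.22 ± 0.08 at P2 and -0.90 ± 0.69 at P1 (SD, n = 5 guides each). Its P1 guides are listed in H3 also for PEX19, a peroxisome import factor, with the same value of -0.90. C17orf49, a subunit of chromatin complexes, had 0.07 ± 0.20 at P2 and 1.54 ± 0.77 at P1 (SD, n = 5 guides each). Of the C17orf49 P1 guides, 3 of 5 are also guides of RNASEK, a protein tied to the lysosomal proton pump, which had a mean of 1.41 ± 0.93 in H3 (SD, n = 5 guides). The C17orf49 difference of -1.47 had an edgeR adjusted p of 0.0640. All P1 guides of RBM4 are also listed under RBM14-RBM4 in H7, at a mean of 0.59 ± 0.55 (SD, n = 5 guides), and some under RBM14 in H5, which had 0.31 ± 0.24 (SD, n = 5 guides). Over all genes, guides of another gene lay within 1000 bases of 12.3% of the P2 targets and 10.3% of the P1 targets. Among the targets that passed these shares were 16.7% at P2, from 2 of 12, and 16.7% at P1, from 10 of 60.

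Calls were set against the distance between the starts. Below 1000 bases, 2 of 133 P2 targets passed, or 1.5%, against 5 P1 targets, or 3.76%. From 1000 to 5000 bases there were 5 of 415 at P2, or 1.2%, and 23 at P1, or 5.54%. From 5000 to 20000 bases there were 4 of 442 at P2, or 0.905%, and 17 at P1, or 3.85%. From 20000 bases there was 1 of 237 at P2, or 0.422%, and 15 at P1, or 6.33%. The pairs with both starts passing in the same direction were 0, 3, 1 and 0 in these classes from near to far. The P2 counts are too small to order the classes. Below 1000 bases, where EEF2 lies, the SD of the target means was 0.16 at P2 and 0.16 at P1. In the farther classes it was 0.13 to 0.14 at P2 and 0.21 to 0.26 at P1. The 2 P2 targets that passed below 1000 bases were GNAT1 at -0.67 and TBX18 at 1.04. Both varied widely between guides, and the SD without them was not computed. EEF2, the elongation factor that moves the ribosome, had -0.08 ± 0.36 at P2 and -0.58 ± 0.60 at P1, with nearest guides 877 bases apart (SD, n = 5 guides each).

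The strand of the gene was found for 967 of the 1227 genes in the RefSeq promoter table, by symbol. P2 was downstream of P1 in 574 of them and upstream in 393. Of the downstream P2 targets 6 passed, or 1.05%, and of the upstream ones 4, or 1.02%. Their P1 targets passed in 37 genes, or 6.45%, and 17 genes, or 4.33%, in the same order.

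The lists of pathways around the receptor are small, and they held no call at P2 and no P2 member with an unadjusted permutation p under 0.05. Over all P2 targets the shares were 0.976% and 7.32%, so lists of 6 to 12 genes with no call do not stand apart from the rest. DNAJC13 and OPRD1, the gene of DOR itself, have no P2 guides in the 6 sublibraries. Of genes of endosome and lysosome traffic 6 had P2 guides, and none passed at P2, against 1 at P1, VPS41. Their P2 means ranged from -0.19 to 0.06, with a median of -0.06, against 0.00 over all genes. COMMD6 and CHMP4A, of the Commander and ESCRT-III complexes, had -0.19 ± 0.20 and -0.16 ± 0.34 (SD, n = 5 guides each). Of the CHMP4A P2 guides, 3 are also guides of MDP1 in H5. These had a mean of -0.29 in H3 and 0.08 in H5. None of 7 genes of the lysosomal proton pump and lysosomal enzymes passed at either start. There the protease cathepsin L (CTSL) lay farthest, at 0.24 ± 0.26 at P2 and 0.37 ± 0.13 at P1 (SD, n = 5 guides each).

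None of 10 clathrin and desensitisation genes passed at either start, with P2 means from -0.15 to 0.10. PACSIN1, an endocytic membrane-bending protein, and NUMB, an endocytic adaptor, had -0.15 ± 0.19 and -0.14 ± 0.18 (SD, n = 5 guides each). Nor did any of 12 opioid receptor, G protein and cyclic AMP genes pass, with P2 means from -0.14 to 0.16. PNOC, which encodes the nociceptin precursor, had 0.16 ± 0.17, and OPRL1, the nociceptin receptor, had 0.14 ± 0.18 at P2 (SD, n = 5 guides each).

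The lists of general cell functions are given beside the shares over all genes, 0.976% of P2 and 4.88% of P1 targets passing, with 7.32% and 12.7% at an unadjusted permutation p under 0.05. At that unadjusted level the P2 counts were 4 for splicing and mRNA, 3 each for ubiquitin ligases and for heme, iron, redox and respiration, 2 each for chromatin, amino acid transport, the cell cycle and nuclear transport, and 1 each for ribosome, proteasome, transcription and actin genes, with 0 for translation, chaperones, the endoplasmic reticulum and Golgi, and autophagy. Of 19 splicing and mRNA genes 1 passed at P2, SRSF6, against 4 at P1. RBM4, a splicing regulator, had 0.38 ± 0.25 at P2 and, with the shared guides described above, 0.53 ± 0.44 at P1 (SD, n = 5 guides each). RBM14-RBM4, the read-through of RBM14 and RBM4, has P2 guides in H7 with 2 of 5 positions shared, and these had 0.71 and 0.05 in H7, against 0.78 and 0.15 in H5. Of 13 genes of ribosomal proteins and ribosome assembly none passed at P2, against 3 at P1. RSL1D1, a ribosome assembly factor, had 0.14 ± 0.34 at P2 and 0.72 ± 0.30 at P1 (SD, n = 5 guides each). Of 5 translation genes none passed at P2, against 2 at P1. Of 9 proteasome and ubiquitin activation genes none passed at P2, against 2 at P1. UBA1, the main ubiquitin-activating enzyme, had -0.10 ± 0.34 at P2 and 0.61 ± 0.64 at P1 (SD, n = 5 guides each).

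Of 22 chromatin genes 1 passed at each start, CHD2. ATF7IP, a partner of the histone methyltransferase SETDB1, had -0.39 ± 0.29 at P2 and -0.26 ± 0.17 at P1, with a permutation adjusted p of 0.0516 at P2 (SD, n = 5 guides each). Of 17 heme, iron, redox and respiration genes 2 passed at each start, HMOX1 among them. SLC48A1, a heme transporter, had 0.30 ± 0.29 at P2 and 0.23 ± 0.29 at P1 (SD, n = 5 guides each), and neither passed. Of 16 amino acid transport and growth signalling genes SLC1A5 passed at both starts and no other at either. The related glutamate transporter SLC1A3 had -0.19 ± 0.10 at P2 and -0.02 ± 0.15 at P1 (SD, n = 5 guides each).

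Of 13 genes of DNA replication, mitosis and the cell cycle none passed at P2, against 2 at P1. CDKN2A, the locus of the cell cycle inhibitors p16 and p14ARF, had 0.44 ± 0.29 at P2 and -0.05 ± 0.17 at P1 (SD, n = 5 guides each), with a permutation adjusted p of 0.0842 at P2. Of 4 genes of the transcription machinery none passed at P2, against 2 at P1. POLR2E, a subunit shared by the RNA polymerases, had -0.31 ± 0.42 at P2 and -0.43 ± 0.24 at P1 (SD, n = 5 guides each). Of 6 genes of the endoplasmic reticulum and Golgi none passed at P2, against 2 at P1, SEC61A1 among them. Of 17 actin, microtubule and motor genes none passed at P2, against 2 at P1. The lists of ubiquitin ligases, with 18 genes, and chaperones, with 6, gave none at P2, against 2 and 1 at P1 in that order. The 4 nuclear transport genes gave none at P2, against 1 at P1, RCC1, and the 3 autophagy genes gave none at either start.

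Some P2 guides were sorted more than once, since their positions are also listed under a gene of another sublibrary. There were 73 such positions in 27 P2 genes. Across these guides the values of the 2 sorts had a Pearson r of 0.59 and a Spearman rho of 0.40, given as a description, since guides of a gene are not independent. Without the ESYT1 guides r was 0.52. The median absolute difference between the sorts was 0.11 and the largest was 1.13. For the 55 pairs listed under 2 targets of the same sublibrary, the counts were the same in both libraries, so such targets are 1 measurement. An example is HSPA1A and HSPA1B, copies of the same chaperone gene, each at -0.11 ± 0.06 at P2 (SD, n = 5 guides).

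The repeats of MCFD2 and KIAA0895 are named here after their values were seen. MCFD2, a cargo adaptor of the secretory pathway, shares 3 P2 guides with TTC7A. These had 0.08, -0.20 and -1.02 in H1, against -0.04, -0.25 and -1.07 under TTC7A in H7. Of the 3 guides, 2 differed by less than the median difference over all repeats and 1 by slightly more. KIAA0895 shares 4 P2 guides with ANLN, the cytokinesis protein anillin. These had 1.15, 0.52, 0.20 and 0.14 in H7, against 1.89, 0.12, 0.08 and 0.07 under ANLN in H2. The same guide stood highest in both sorts, but the values of the first 2 guides lay further apart than the SD of the difference over all repeats, 0.34. KIAA0895 did not pass at P2, with a mean of 0.50 ± 0.46 (SD, n = 4 guides) and a permutation adjusted p of 0.147, while ANLN passed at 0.69 ± 0.85 (SD, n = 5 guides) with a permutation adjusted p of 0.00319.

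The abundance of guides, taken as the sum of the top and bottom counts, was also compared. It holds growth effects and the starting amount of each guide together, as no library from before the screen was used. The gene means had a median of -0.09 at P2 and -0.10 at P1 on the log2 scale, relative to the median non-targeting guide. Means below -1 were found for 77 genes at P2, or 6.28%, against 69 at P1, or 5.62%. Of 1103 genes 1 passed in edgeR's quasi-likelihood test, or 0.0907%. This was SF3A2, a core subunit of the U2 snRNP of the spliceosome. Its P2 guides had 1349 to 1857 top and 1961 to 2654 bottom counts, against 128 to 465 top and 56 to 414 bottom counts at P1. Every P2 guide was more abundant than every P1 guide. The edgeR estimate between the starts was 3.22 on the log2 scale, with an edgeR adjusted p of 0.0274. The same P1 guides had a top over bottom mean of 0.67 ± 0.74, against -0.20 ± 0.34 at P2 (SD, n = 5 guides each), and the P1 target passed with a permutation adjusted p of 0.00646. That P1 call ended with edgeR's test of the ratio, at an adjusted p of 0.578. No gene passed with a lower abundance at P2 in edgeR's test or with limma, where 33 and 39 genes had an unadjusted p under 0.05 in that direction.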

How the data were processed

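Guides in 14 libraries were counted by the submitters; Bowtie is the tool named, per the submitters' processing notes, with no version. The deposited tables hold raw whole-number counts per guide. Sublibrary H4 was not compared, as its top table held 35 complete guides here. A guide was kept with at least 50 counts in either library, and a target with at least 3 such guides. The mean log2 ratio had a pseudocount of 1 and was centred on the non-targeting guides. It was tested two-sided by permutation, against 100000 draws from the target's own guides pooled with its sublibrary's non-targeting guides. Benjamini-Hochberg adjustment ran over all 18116 targets, with a threshold of 0.05. P2 minus P1, and abundance, were tested with edgeR 4.0.16 (quasi-likelihood, guides as blocks for the ratio; adjusted over 1103 genes), with limma 3.58.1 as an alternative. Both procedures were tested on simulated counts, with the same change for all guides of a changed target. The simulation did not draw single outlying guides, so it does not cover targets such as GNAT1. No guide sequence is shown, as the tables hold only names. The members and the 19 lists were chosen with earlier results of these data known, so no p is adjusted over a list.

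Named genes are P2 targets past the threshold; up to 8 genes a direction for the difference and 5 for abundance; up to 10 with P1 alone past the threshold, by size over the non-targeting SD; up to 4 per list farthest from 0 at P2, of which some are printed; and DNAJC13, OPRD1, SLC1A5 and VPS41 where they have P2 guides. Genes just outside the threshold, neighbours and repeats were picked with their values in view. A gene that these rules take is counted but not reported here by name.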

Additional observations from a re-analysis of the deposited data

Results flagged for a closer look

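P2 guides of sublibrary H4 were read only in its bottom library and entered no comparison. There 830 P2 guides of 166 genes had a median of 1393.5 counts, against a median of 1363.5 counts for the non-targeting guides. They are listed because they are measured and unused, and no top over bottom ratio was formed for them.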

How the results depend on the processing

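As reported, 4 P2 targets passed toward the top and 8 toward the bottom libraries. Leaving out the farthest guide of each target gave 8 and 5, adjustment within sublibraries gave 8 and 9, and edgeR with guides as blocks gave 0 and 2. For P1 targets of the same genes edgeR gave 8 and 10, against 32 and 28. Among the P1 calls that ended with edgeR were those of DCAF8, C17orf49, RBM4, RCC1, EEF2, UBA1, POLR2E and SF3A2. Fewer genes were tested with starts at least 1000 bases apart. Then 6 genes had a higher and 7 a lower ratio at P2, against 4 and 4. The exact permutation with no adjustment gave 52 genes higher and 39 lower at P2, of 1103 genes with 5 guides at each start. These unadjusted counts hold genes that pass by chance and do not compare with the adjusted counts, 4 and 4. SLC1A5 kept its P2 call under every alternative except adjustment within sublibraries; its difference, and those of PCID2, PPP2R1A, SEC61A1 and SLC12A9, passed under all alternatives in which the gene was tested. SMC4 passed in 3 of 5 such fits. The causes were not tested. Top and bottom counts were compared within each guide, but no pairing over repeat sorts was possible because each group has 1 library. Few counts limit the guides of TBX18 and GNAT1 that lie farthest from 0. A pseudocount of 10 moved the GNAT1 P2 mean from -0.67 to -0.63. It moved the DNASE1L1 P1 mean from -0.72 to -0.64.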
